A study of Homo sapiens with 24 samples.

Results

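The response to almonertinib and paclitaxel given together was compared between PC9 and H1975, which are established human lung adenocarcinoma lines. For each gene the log2 change from control to combination in H1975 was subtracted from the same change in PC9, and the result is called the difference below. A positive difference means that the response was higher in PC9 (a larger increase or a smaller decrease), and a negative one that it was higher in H1975. The comparison rests on 12 of the 24 libraries of the series: 3 control and 3 combination libraries of each line, from cells collected after 24 h. All 24 libraries were fitted together, so the spread behind the p-values and standard errors also draws on the single-drug libraries. Genes expressed in both lines, with a mean of at least 5 CPM (counts scaled to the size of the library) in the controls of each line, are described first. They were 8157 of the 13380 genes tested, out of 19702 genes in the table.

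PC9 carries an activating deletion in the growth factor receptor gene EGFR, and H1975 carries an activating EGFR mutation together with a second one that gives resistance to earlier inhibitors. Almonertinib is a covalent inhibitor of mutant EGFR, and paclitaxel is a taxane that stabilises microtubules. The single-drug doses were 2 nM almonertinib and 0.3 nM paclitaxel for PC9, and 1 nM of either drug for H1975. No separate dose is labelled for the combination, so line and dose cannot be told apart in any difference given here. Nothing in the labels says that the 3 libraries in each group were separate cultures. The p-values then measure only the spread among the libraries, and that spread may be technical.

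EGFR signals through the RAS, RAF, MEK and ERK kinases and through PI3K and AKT. ERK activity induces early transcription factors such as the AP-1 protein FOSL1, its own brakes (the DUSP phosphatases and the Sprouty proteins), ligands that feed back on the receptor, and the cyclins that take cells from G1 into S phase. AKT keeps FOXO transcription factors out of the nucleus, so FOXO targets are usually low while the pathway is active. Type I interferon signalling, by contrast, acts through STAT proteins and IRF9 on a short promoter element shared by many antiviral genes.

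The 12 libraries held between 15255499 and 24245314 counts each, and no library pair of a group agreed within sampling noise (chi-square per degree of freedom 3.68 to 46.8). H1975 control 3 stood apart: its root mean square log2 distance to the other H1975 controls was 0.396 and 0.425, against 0.256 between those. Its Spearman correlation with GC content over genes was −0.664, against 0.267 and 0.400 for those. The quantity correlated was each gene's log2 deviation from its mean over the H1975 control and combination libraries. All 8 epithelial markers were found in every library (summed level 12089 to 27090 CPM). Summed leukocyte markers reached 15.5 to 18.9 CPM in PC9 control, 24.6 to 29.9 CPM in PC9 combination, 38.4 to 44.4 CPM in H1975 control and 39.6 to 46.6 CPM in H1975 combination, nearly all of it CSF1R, while PTPRC was at 0 in 11 of 12 libraries and NKG7 in 12 of 12. The CSF1R level rose with the combination in PC9, and whether it has a part in the results below was not tested. Fibroblast and endothelial markers summed to at most 24.9 and 18.1 CPM, and COL1A2, LUM, THY1, CLDN5 and EMCN were at 0 in all 12. The lung lineage factor NKX2-1 was at 33.4 to 83.8 CPM in H1975 but only 0.157 to 0.920 CPM in PC9, and the surfactant gene SFTPB was at 0 in 9 of 12 libraries. In RNA from whole cultures, fewer cells of a type and less RNA per cell cannot be told apart.

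Among the 8157 genes expressed in both lines, the response was higher in PC9 for 520 genes (6.37%) and higher in H1975 for 1196 (14.7%), at an edgeR adjusted p under 0.05. In PC9 itself 1152 genes rose (14.1%) and 1948 fell (23.9%), whereas in H1975 607 rose (7.44%) and 301 fell (3.69%). Most genes with a higher response in H1975 were genes that fell in PC9: 859 of the 1196 fell in PC9 and did not pass the test in H1975, and 24 fell in both lines. A further 142 rose in H1975 and were not called in PC9. Of the 520 genes with a higher response in PC9, 382 rose in PC9 and were not called in H1975, and 42 fell in H1975 without a call in PC9. A total of 211 genes rose in both lines and 137 fell in both. The difference was at least 2-fold for 263 genes in the PC9 direction and 327 in the H1975 direction. In 73.9% of all genes expressed in both lines the 3 library log-ratios of one line did not overlap with the 3 of the other, so non-overlap alone is common here. The median difference was −0.06 over these genes and 0.02 over all genes tested.

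The split of calls depended on the fit. Higher responses in PC9 made up 30.3% of the calls, but 45.6% with upper quartile factors (799 against 952 genes), which moved the median difference of all genes by 0.10. The share was 41.4% with the 12 libraries alone (1281 against 1816), 42.5% with library weights (1673 against 2268) and 47.2% after a trend with transcript length and GC content was removed (1445 against 1618). Without H1975 control 3 the counts were 480 and 1099, and without PC9 combination 2 they were 336 and 794.

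**Figure D1:**
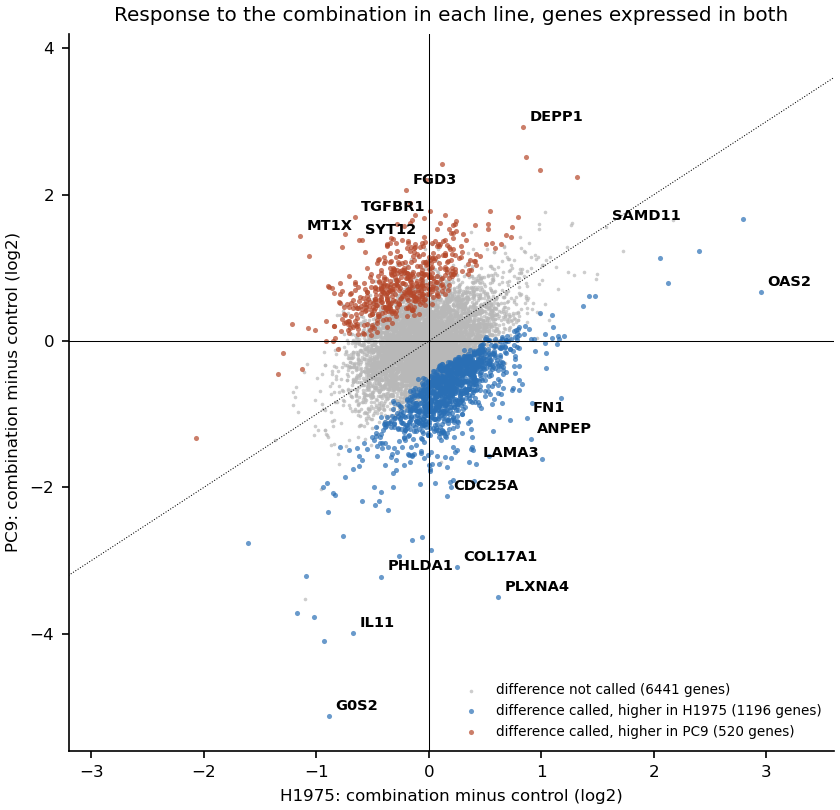
Log2 change of each gene under the combination in PC9 (vertical axis) against that in H1975 (horizontal axis), for the 8157 genes expressed in both lines. Points are genes, coloured by the test of the difference: 520 higher in PC9, 1196 higher in H1975 and 6441 not called. The cloud is wider along the PC9 axis, and the genes higher in H1975 lie mostly where PC9 fell.

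Many EGFR and ERK targets fell further in PC9 than in H1975. Of 34 such genes tested, 16 had a higher response in H1975 and none a higher response in PC9, and their median difference was −0.68 against 0.02 over all genes tested, of which 11.0% were higher in H1975 and 6.99% higher in PC9. At an unadjusted p under 0.05, 17 were higher in H1975 and 1 in PC9, and DESeq2 called 17 and 0. In PC9 24 of the 34 fell (18.6% of all genes tested fell) and in H1975 12 fell and 2 rose (2.99% and 6.41% of all genes tested). The median change was −0.99 in PC9 and −0.41 in H1975. The falls in H1975 numbered 16 with the 12 libraries alone, 18 with library weights and 21 with an offset for transcript length and GC content. Over the alternatives they ran from 10 to 21 and the rises from 0 to 5, against 22 to 28 falls in PC9. The higher responses in H1975 ran from 14 to 20.

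DUSP6 (chr12:89347232-89353271 on GRCh38), the phosphatase that removes the activating phosphates from ERK, was at 42.6, 47.9 and 51.9 CPM in the PC9 controls and 5.91, 6.19 and 6.88 CPM under the combination. In H1975 it was at 3.14, 2.99 and 4.58 CPM and then 2.36, 2.71 and 3.04 CPM. The PC9 groups were far apart, while the H1975 combination libraries overlapped with the controls at a level already below the cut of 5 CPM. The log2 change was −2.90 in PC9 and −0.40 in H1975 (adjusted p = 0.232), a difference of −2.50 ± 0.27 (standard error, edgeR adjusted p = 1.16e-06).

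PHLDA1 (chr12:76025447-76033932), a growth-factor-induced gene, had 165, 162 and 164 CPM in the PC9 controls and 16.1, 19.2 and 17.3 CPM under the combination. The H1975 controls had a similar level, 139, 140.2 and 154 CPM, and the combination libraries 109, 107 and 108 CPM. The controls of the lines were close to each other, and PHLDA1 fell without overlap in both lines, with log2 changes of −3.22 in PC9 and −0.42 in H1975. The difference was −2.80 ± 0.15 (edgeR adjusted p = 7.56e-12).

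FOSL1 (chr11:65892049-65900573), the AP-1 subunit FRA1, went from 282, 192 and 199.96 to 21.9, 24.7 and 26.1 CPM in PC9. In H1975, where it was more abundant, it went from 1076, 1009 and 753 to 465, 436 and 429.97 CPM. It fell in both lines, with log2 changes of −3.21 and −1.09 and a difference of −2.12 ± 0.28 (edgeR adjusted p = 1.58e-05). EGFR itself had 736, 678 and 630.2 CPM in the PC9 controls and 611, 611 and 502 CPM under the combination, against 98.7, 107 and 142 and 126, 117 and 137 CPM in H1975. The EGFR groups overlapped in H1975 and not in PC9, and no contrast was called (difference −0.37, 95% interval −0.87 to 0.12, edgeR adjusted p = 0.294). CCND1, which encodes cyclin D1, fell in both lines, with log2 changes of −0.61 in PC9 and −0.51 in H1975, and the interval of the difference was −0.43 to 0.24 (edgeR adjusted p = 0.725).

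Several ligands of the ERBB receptors also fell further in PC9. Of 12 ERBB receptors and ligands tested, 4 had a higher response in H1975 and 1 in PC9 (11.0% and 6.99% of all genes tested). Only 6 of the 12 were expressed in both lines, and among those 1 was called in each direction. AREG (chr4:74445134-74455009), which encodes amphiregulin, went from 30.5, 29.99 and 26.6 CPM to 2.03, 2.25 and 2.33 CPM in PC9, and from 12.7, 12.4 and 16.96 CPM to 6.23, 4.91 and 7.42 CPM in H1975. It fell in both lines (difference −2.54 ± 0.25, edgeR adjusted p = 2.2e-07). HBEGF, the heparin-binding EGF-like ligand, had 29.96, 33.7 and 35.3 CPM in the PC9 controls and 2.37, 2.84 and 3.22 CPM under the combination. The H1975 libraries stayed between 2.64 and 3.49 CPM and overlapped, at about the level to which PC9 came down, and the difference was −3.66 ± 0.23 (edgeR adjusted p = 1.07e-10). The neuregulin gene NRG1 was low in PC9, at 3.03, 2.64 and 1.35 CPM in the controls, and fell there, with a log2 change of −2.87 and a difference of −2.30 ± 0.45 (edgeR adjusted p = 0.000596). ERBB2 was the member with a higher response in PC9 (0.58 ± 0.18, edgeR adjusted p = 0.031), a call that was lost in 7 of 23 alternatives. EPHA2, another receptor tyrosine kinase, fell in both lines, with log2 changes of −2.11 in PC9 and −0.84 in H1975 (difference −1.27 ± 0.22, edgeR adjusted p = 0.000289).

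**Figure D2:**
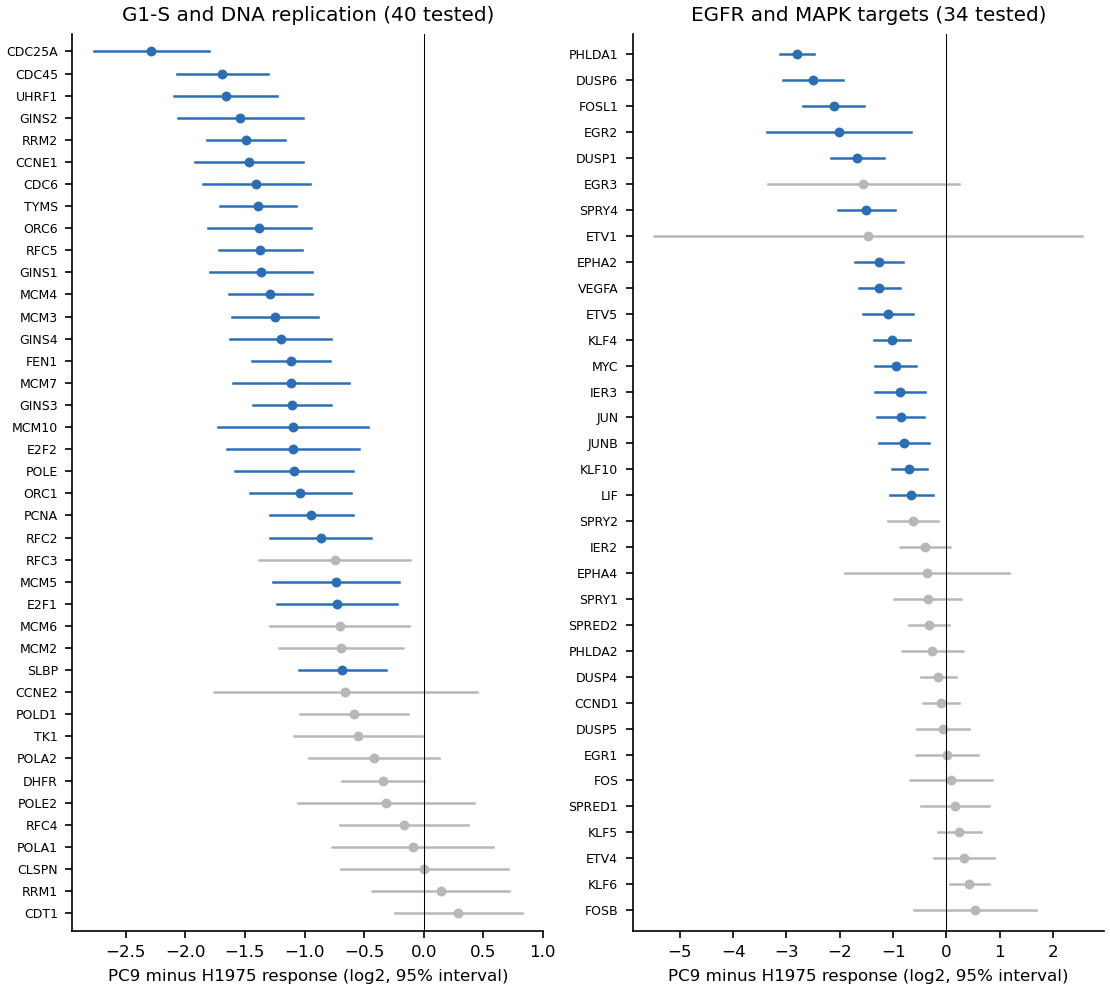
Difference in log2 combination response, PC9 minus H1975 (horizontal axis), for the 40 genes of the G1-S and DNA replication list and the 34 EGFR and MAPK targets, with 95% intervals. Blue marks genes whose difference was called; 26 and 16 of them were called, each below 0.

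Cytokine genes held some of the largest differences. IL11 (chr19:55364389-55370463), an IL-6 family cytokine, had 267, 319 and 329 CPM in the PC9 controls and 20.7, 16.97 and 19.9 CPM under the combination. In H1975 it had 51.1, 49.8 and 40.3 CPM and then 31.96, 28.4 and 28.2 CPM. The groups were separate in both lines, but the PC9 gap was much wider, and the difference was −3.32 ± 0.27 (edgeR adjusted p = 1.92e-08). IL6 went from 41.7, 69.5 and 78.9 to 10.8, 8.897 and 10.1 CPM in PC9 and from 4.19, 5.64 and 5.29 to 4.62, 4.22 and 5.59 CPM in H1975, where the groups overlapped (difference −2.62 ± 0.30, edgeR adjusted p = 2.61e-06). TNFAIP3, the NF-kB feedback inhibitor A20, fell in PC9 (log2 change −1.48), and its H1975 change of 0.38 was not called (difference −1.86 ± 0.18, edgeR adjusted p = 2.5e-07). Of 27 NF-kB targets and cytokines tested, 5 were higher in H1975 (4 to 11 over the alternatives) and 2 in PC9, with a median difference of −0.45. Over all genes tested the shares were 11.0% and 6.99%. The members with a higher response in PC9 were IL1B and TNFAIP2, and both lost the call in several alternatives (8 of 22 and 9 of 23).

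Most DNA replication genes fell in PC9. Of 40 G1-S and DNA replication genes tested, 35 fell in PC9 (median change −1.02) and 0 were called in H1975 (median −0.11) by edgeR fitted to all 24 libraries. In H1975 at an unadjusted p under 0.05, 5 fell and 1 rose, DESeq2 called 1 and 1, and limma voom with library weights called 10 and 1. The falls called by edgeR in H1975 numbered 4 with the 12 control and combination libraries alone, 7 with an offset for gene length and GC content, and 1 without H1975 control 2 or without H1975 control 3. The difference itself was called for 26 of the 40 (65.0%, against 11.0% of all genes tested), all higher in H1975, with a median of −1.06. That count was between 22 and 32 over the alternatives and was lowest without PC9 control 1.

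CDC25A (chr3:48157146-48188402), the phosphatase that activates cyclin-dependent kinases at entry into S phase, had 45.4, 33.99 and 32.6 CPM in the PC9 controls and 8.33, 9.13 and 8.27 CPM under the combination. The H1975 libraries had 15.7, 18.2 and 14.9 CPM and 19.2, 20.03 and 15.5 CPM and overlapped. The difference was −2.29 ± 0.23 (edgeR adjusted p = 4.63e-07). RRM2 (chr2:10120698-10131419), the small subunit of ribonucleotide reductase, went from 152, 129 and 126 to 42.5, 46.1 and 40.7 CPM in PC9 and from 190.1, 206 and 219.8 to 181, 178 and 190.1 CPM in H1975. The PC9 groups were about 3 times apart and the H1975 groups touched, giving a difference of −1.49 ± 0.16 (edgeR adjusted p = 8.7e-07). CDC45 (chr22:19479459-19520612), part of the replicative helicase, went from 41.5, 34.5 and 36.1 to 10.3, 12.02 and 12.5 CPM in PC9 and from 86.6, 97.5 and 80.2 to 90.4, 86.5 and 87.2 CPM in H1975 (difference −1.69 ± 0.19, edgeR adjusted p = 1.16e-06).

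Mitotic genes went the same way with a smaller median difference. Of 31 G2-M genes tested, 17 fell in PC9, and 11 had a higher response in H1975 (median difference −0.48). Over all genes tested the shares were 18.6% and 11.0%. In H1975 0 were called by edgeR fitted to all 24 libraries, with 5 up and 2 down at an unadjusted p under 0.05, 1 up and 0 down by DESeq2, and 6 up and 9 down with library weights. With the 12 libraries alone edgeR called 2 up and 5 down there, and with the length and GC offset 1 up and 4 down. Without PC9 control 1 or PC9 combination 2 the 11 became 7. CCNB1, which encodes the mitotic cyclin B1, had 135, 133 and 138 CPM in the PC9 controls and 78.04, 74.4 and 72.3 CPM under the combination, against 176, 179 and 194 and 193, 206 and 191 CPM in H1975. PC9 was lower in every combination library, and the H1975 groups overlapped (difference −0.96 ± 0.15, edgeR adjusted p = 0.00014). The mitotic kinase gene AURKA fell in PC9 (log2 change −0.95) and was not called in H1975 (0.26), a difference of −1.21 ± 0.16 (edgeR adjusted p = 1.44e-05). Among 24 DNA repair and checkpoint genes 5 were higher in H1975 and 0 in PC9 (11.0% and 6.99% of all genes tested), with a median difference of −0.08. At an unadjusted p under 0.05 there were 8 and 5, DESeq2 called 7 and 4, and edgeR called 8 and 5 with the 12 libraries alone. Without PC9 control 1 the counts were 3 and 1.

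The sequence upstream of these cell cycle genes is shown because a CCAAT box, the element bound by NF-Y, is common there. In the 250 bases before the start listed by RefSeq (GRCh38.p14), CCAAT or its reverse ATTGG was found for 20 of 35 G1-S genes with a promoter entry (57.1%) and for 19 of 26 G2-M genes (73.1%). The share was 34.8% of 10788 promoters of tested genes and 33% of all 27305 promoters. The element was found in 16 of the 23 G1-S genes with a called difference that had an entry, and in 5 of 8 such G2-M genes. Whether the element has a part in the difference was not tested. TTTGAA or TTCAAA, the cell cycle homology region, was found for 13 of 26 G2-M genes (50%) and 1 of 35 G1-S genes (2.86%), against 8.40% of promoters of tested genes. Among the 8 G2-M genes with a called difference and an entry, 2 held that region. A match describes the letters and not a bound site. The stretches below are on the gene's strand, 5′ to 3′, with the CCAAT or ATTGG in capitals, from 3 G1-S genes and 1 mitotic gene whose values are given above. Those of RRM2 and CDC45 precede the RefSeq start but lie inside the gene spans printed above, which come from GENCODE and begin earlier.
CDC25A, chr3:48188459-48188487, minus strand: agttgcttactgATTGGtggattccgttt
RRM2, chr2:10122661-10122689, plus strand: ggggcaccaaagCCAATgggaagggccgg
CDC45, chr22:19479864-19479892, plus strand: gtgatccctggaCCAATcggaggagccgt
CCNB1, chr5:69167083-69167111, plus strand: gccacgaacaggCCAATaaggagggagca

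Most ribosome production genes fell in PC9 as well. Of 29 ribosome biogenesis genes tested, 22 fell in PC9 (median change −0.68) and 3 fell in H1975 (median −0.26), and the difference was called for 13 in the H1975 direction and 1 in the PC9 direction (median −0.55). Over all genes tested 18.6% fell in PC9 and 2.99% in H1975, and 11.0% were higher in H1975 and 6.99% in PC9. The 3 falls in H1975 became 10 with the 12 libraries alone, 11 with the length and GC offset and 16 with library weights. Without PC9 control 1 the 22 falls in PC9 became 15 and the 13 differences became 9, and the 13 ran up to 15 over the alternatives. The single ribosome biogenesis gene in the PC9 direction was NPM1 (0.86 ± 0.25), the nucleolar chaperone nucleophosmin. NOP56 (chr20:2652145-2658393), a core protein of the particles that methylate ribosomal RNA, had 229.6, 180.5 and 179 CPM in the PC9 controls and 76.8, 73.3 and 75.8 CPM under the combination, while H1975 had 115, 134 and 112 and 124, 116 and 111 CPM. The H1975 groups overlapped and the PC9 groups were more than 100 CPM apart (difference −1.34 ± 0.18, edgeR adjusted p = 1.62e-05). RRS1, a ribosome assembly factor, differed by −1.65 ± 0.22 (edgeR adjusted p = 1.62e-05). MYC, the transcription factor that drives many of these genes, fell in both lines: from 234, 179 and 201 to 65.6, 69.4 and 71.2 CPM in PC9 and from 595, 736 and 589 to 439.7, 414 and 392 CPM in H1975. The fall was larger in PC9 (difference −0.95 ± 0.19, edgeR adjusted p = 0.00104). Cytosolic ribosomal protein genes had a median difference of −0.03, with 1 of 36 called in each direction (0 to 5 in the H1975 direction and 1 to 9 in the PC9 direction over the alternatives). Among 30 proteasome genes, 14 fell in PC9, 1 fell in H1975 and 6 had a higher response in H1975, led by PSMD11, a subunit of the regulatory particle (−0.93 ± 0.15, edgeR adjusted p = 0.000125). The 14 became 7 without PC9 control 1, PC9 combination 2 or PC9 combination 3, and 8 with upper quartile factors. The falls in H1975 became 9 with the 12 libraries alone and 12 with library weights. The higher responses in H1975 ran from 3 (without PC9 control 1) to 11 over the alternatives.

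**Figure D3:**
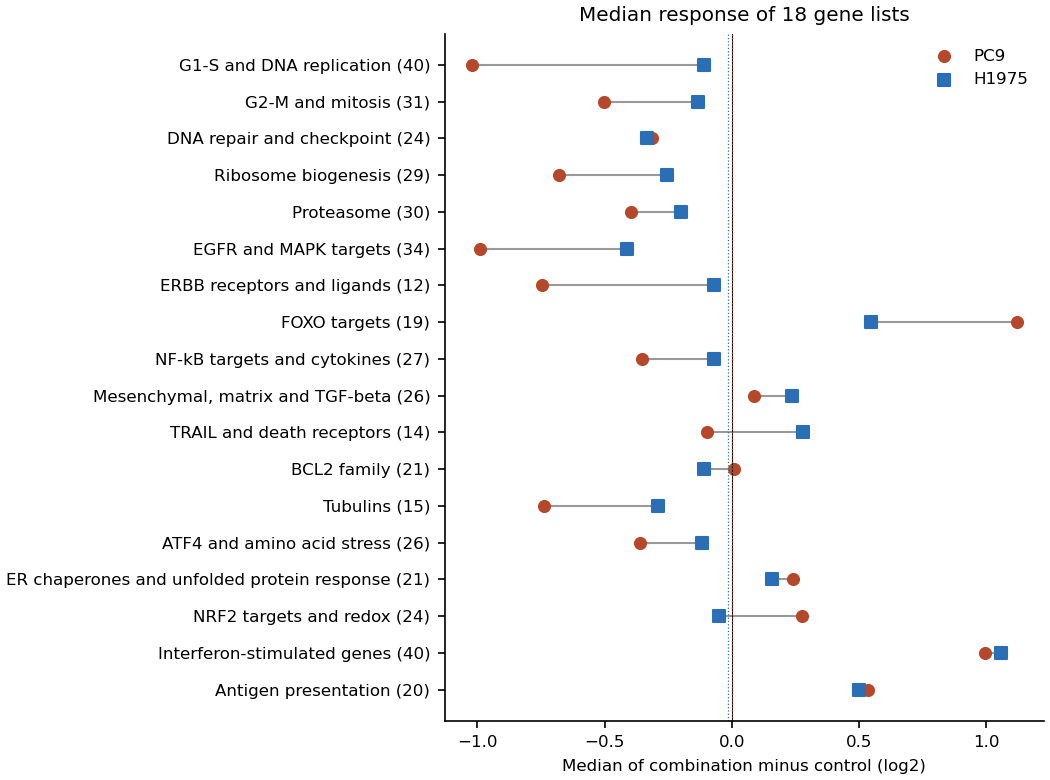
Median log2 change under the combination for 18 gene lists, in PC9 (dots) and H1975 (squares). Dotted lines are the medians of all genes tested. The lines lie farthest apart for the replication genes (−1.02 in PC9, −0.11 in H1975) and close together for the interferon-stimulated genes (1.00 and 1.06).

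Most FOXO targets rose in PC9, and fewer of them were called in H1975. Of 19 tested, 17 rose in PC9 (median change 1.12) and 9 rose in H1975 (median 0.55). Over all genes tested 17.5% and 6.41% rose. The difference was called for 4, all higher in PC9, with a median of 0.45, and it was called for 2 genes without PC9 control 1 or without H1975 combination 1. That count was 6 with upper quartile factors, with library weights or without H1975 control 2, and 8 with the 12 libraries alone or with the length and GC offset. The 9 that rose in H1975 became 4 without H1975 control 2 and 5 without H1975 control 1 or combination 3. DEPP1 (chr10:44970981-44978810), a FOXO-induced regulator of autophagy, had 13.2, 21.7 and 23.1 CPM in the PC9 controls and 142, 139 and 158 CPM under the combination. The H1975 libraries had 51.2, 43.7 and 59.4 CPM and 61.4, 85.2 and 129.8 CPM, with a wide spread under the combination. It rose in both lines without overlap, and the difference was 2.08 ± 0.33 (edgeR adjusted p = 0.000132). FBXO32, the ubiquitin ligase atrogin-1, went from 8.16, 10.8 and 9.98 to 36.7, 29.9 and 32.6 CPM in PC9 and from 132, 137 and 137 to 197, 197 and 198 CPM in H1975. Both rose, from a level more than 10 times lower in PC9, and the difference was 1.24 ± 0.17 (edgeR adjusted p = 3.47e-05).

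Cell death genes were divided. BMF, a BH3-only protein that promotes apoptosis, had 13.5, 13.9 and 15.5 CPM in the PC9 controls and 73.7, 68.97 and 73.3 CPM under the combination, and 9.28, 11.96 and 11.2 and 21.2, 21.7 and 21.5 CPM in H1975. It rose without overlap in both lines, and more in PC9 (difference 1.34 ± 0.24, edgeR adjusted p = 0.000427). PMAIP1, the BH3-only protein NOXA, fell in PC9 (log2 change −1.09) and was not called in H1975 (−0.11), a difference of −0.98 ± 0.21 (edgeR adjusted p = 0.00237). Over 21 BCL2 family genes, 2 were higher in each direction and the median difference was 0.18. The share in the H1975 direction (9.52%) was near that of all genes tested (11.0%), of which 6.99% were higher in PC9. The count in the PC9 direction ran from 1 to 10 over the alternatives, with 1 without PC9 control 1, H1975 control 1 or H1975 combination 1 or 3. Of 14 genes of the TRAIL and death receptor pathway, 5 had a higher response in H1975 and 0 in PC9 (6 and 0 by DESeq2, 7 and 2 at an unadjusted p under 0.05). The 5 made up 35.7% of that list, against 11.0% of all genes tested. TNFRSF10A, the death receptor DR4, went from 19.4, 20.4 and 19.05 to 6.44, 7.38 and 6.98 CPM in PC9 and from 13.8, 18.5 and 15.4 to 16.1, 15.1 and 14.1 CPM in H1975. The PC9 groups were apart and the H1975 groups overlapped (difference −1.43 ± 0.21, edgeR adjusted p = 4.62e-05). TNFRSF10B, the death receptor DR5, differed by −0.98 ± 0.15 (edgeR adjusted p = 8.99e-05).

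Most interferon-stimulated genes rose in each line, though not always the same ones. Of 40 tested, 27 rose in PC9 (median change 1.00) and 27 rose in H1975 (median 1.06), with 1 fall in PC9 and 0 in H1975 (0 at an unadjusted p under 0.05, 0 by DESeq2). Over all genes tested 17.5% rose in PC9 and 6.41% in H1975. The difference was called for 14 of the 40 in the H1975 direction and 1 in the PC9 direction, with a median of −0.18. Of all genes tested 11.0% and 6.99% were called in these directions. The control level was called higher in PC9 for 30 of the 40 (34.9% of all genes tested), and for 13 of the 14 genes with a higher response in H1975. Without PC9 control 1, which was lower than the other PC9 controls for many of these genes, 21 rose in PC9 and 14 were higher in H1975. Without PC9 control 3 the 14 became 10.

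OAS2 (chr12:112978395-113011723 on GRCh38), an enzyme that makes the 2-5A activator of RNase L, had 92.8, 165 and 167 CPM in the PC9 controls and 219, 233 and 223 CPM under the combination. The H1975 controls were far lower, at 7.92, 7.73 and 12.05 CPM, and the combination libraries had 76.1, 66.9 and 71.5 CPM. Both lines were separated from their controls, the H1975 combination stayed below the level of every PC9 control, and the difference was −2.28 ± 0.31 (edgeR adjusted p = 2.42e-05). OASL, a related protein without that enzyme activity, had 1156, 1807 and 1838 CPM in the PC9 controls and 1291, 1134 and 1300.0 CPM under the combination, and rose in H1975 from 43.4, 50.7 and 40.2 to 97.3, 85.96 and 93.6 CPM. Its PC9 groups overlapped (difference −1.41 ± 0.23, edgeR adjusted p = 0.000174). CMPK2, a mitochondrial nucleotide kinase, rose in H1975 by 2.47, and its PC9 change of 0.32 was not called (difference −2.15 ± 0.31, edgeR adjusted p = 5.09e-05). The member with a higher response in PC9 was BATF2, a basic leucine zipper factor, which rose in both lines, by 2.40 and 1.14 (difference 1.25 ± 0.30, edgeR adjusted p = 0.00494).

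Of 20 antigen presentation genes tested, 10 rose in PC9 (17.5% of all genes tested) and 12 in H1975 (6.41%), and 4 had a higher response in H1975 (11.0%). The 12 became 5 without H1975 control 1 or combination 2, 7 without H1975 combination 1, 8 without H1975 control 3 or combination 3, and 17 with the length and GC offset, while the 4 ran from 3 to 8 over the alternatives. B2M, the light chain of MHC class I, rose in H1975 from 254, 253 and 318 to 401, 461 and 402 CPM and was not called in PC9, where it had 613, 815 and 783 and 597, 504 and 587 CPM (difference −1.01 ± 0.22, edgeR adjusted p = 0.00293). HLA-B, a heavy chain gene whose reads can be shared with close relatives, rose in H1975 by 0.93 against 0.02 in PC9 (difference −0.91 ± 0.21, edgeR adjusted p = 0.00334). TAP2, a subunit of the peptide transporter, fell in PC9 (log2 change −0.81) and was not called in H1975 (difference −0.96 ± 0.19, edgeR adjusted p = 0.000998). The member called in the PC9 direction, ERAP2, lost its call in 10 of 23 alternatives.

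**Figure D4:**
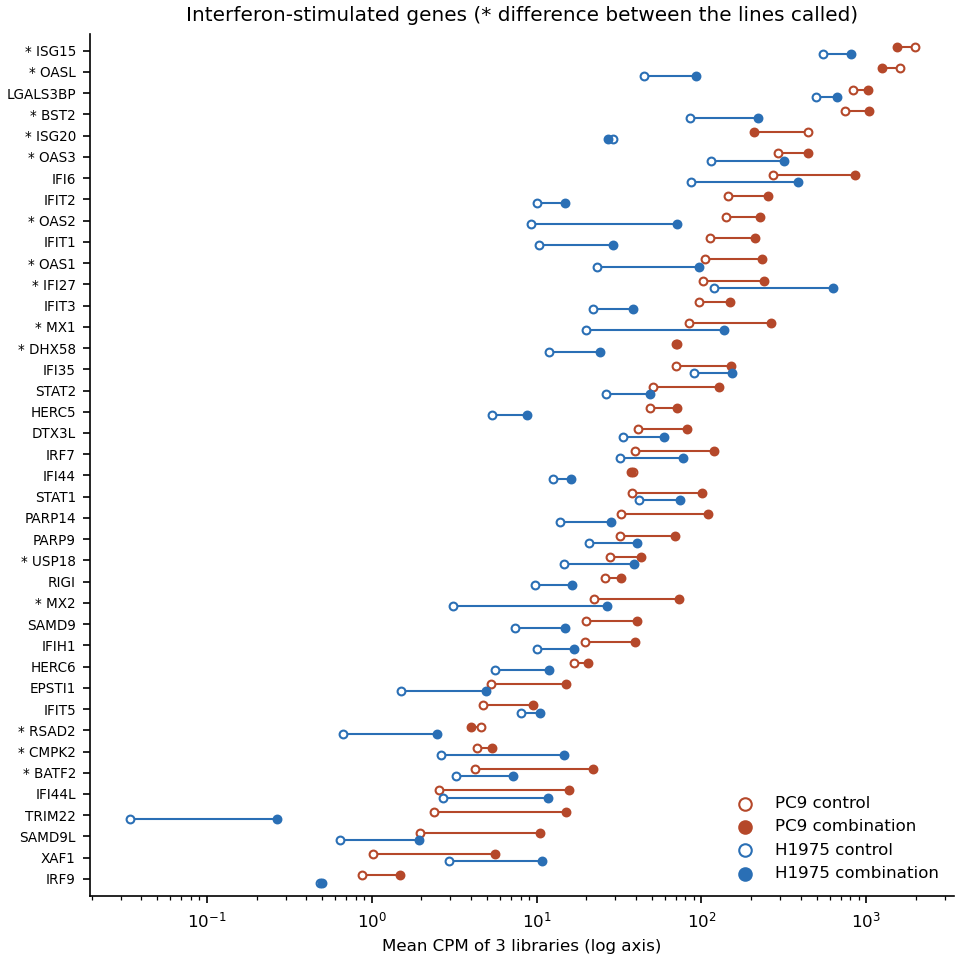
Mean CPM (log axis) of the 40 interferon-stimulated genes in control (open symbols) and combination (filled symbols) libraries of each line, 3 libraries a group. An asterisk marks genes with a called difference, 14 in the H1975 direction and 1 in the PC9 direction. For 30 of the 40 the PC9 control was called above the H1975 control.

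The upstream sequence of interferon-stimulated genes is shown for the element that interferon signalling is known to use. GAAANNGAAA, the interferon-stimulated response element, or its reverse TTTCNNTTTC was found within 250 bases before the start for 17 of 31 genes with a promoter entry (54.8%), against 2.31% of promoters of tested genes. It was found for 5 of the 9 genes called in the H1975 direction that had an entry, and for 7 of 16 antigen presentation genes (43.8%). The AP-1 site TGANTCA was found for 0 of 21 EGFR and ERK targets with an entry (3.97% of promoters of tested genes), and the cyclic AMP response element TGACGTCA for 2 of 21 (9.52%, against 2.85%). The 4 genes below were chosen after their values were seen, among those that hold the element and have a called difference. They are the virus-tethering protein BST2 (difference −0.88 ± 0.23, edgeR adjusted p = 0.00933), the exonuclease ISG20 (−0.98 ± 0.27, 0.0125), OAS3 (−0.86 ± 0.24, 0.0164) and the ubiquitin-like modifier ISG15 (−0.92 ± 0.31, 0.0429). Capitals mark the element, and overlapping copies are capitalised together.
BST2, chr19:17405735-17405764, minus strand: ctggGAAACTGAAACTGAAAacctaattaa
ISG20, chr15:88638937-88638966, plus strand: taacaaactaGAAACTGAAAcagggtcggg
OAS3, chr12:112938452-112938473, plus strand: agccgggcggGAAAACGAAAcc
ISG15, chr1:1013380-1013409, plus strand: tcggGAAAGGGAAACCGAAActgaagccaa

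Of 26 mesenchymal, matrix and TGF-beta genes tested, 7 had a higher response in H1975 and 2 in PC9 (11.0% and 6.99% of all genes tested). The lines moved in opposite directions for 1 of the 26, FN1. FN1 (chr2:215360440-215436172), which encodes fibronectin, had 3267, 4769 and 5303 CPM in the PC9 controls and 2403, 2106 and 1929 CPM under the combination. In H1975 it had 154, 191 and 182 CPM and then 342, 302 and 318 CPM. PC9 control 1 was lower than the other 2 controls but still above every combination library, and H1975 moved up without overlap. FN1 fell in PC9 (log2 change −1.05) and rose in H1975 (0.87) (difference −1.92 ± 0.29, edgeR adjusted p = 8.21e-05).

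LAMA3 (chr18:23689443-23956222), the alpha chain of laminin-332, went from 95.9, 93.3 and 89.99 to 29.6, 31.2 and 26.6 CPM in PC9 and from 36.6, 40.3 and 41.3 to 54.1, 52.3 and 51.6 CPM in H1975. It fell in PC9 and rose in H1975 with no overlap in either line (difference −2.09 ± 0.18, edgeR adjusted p = 2.37e-08). COL17A1, a hemidesmosome collagen, fell in PC9 from 24.2, 23.4 and 24.2 to 3.05, 2.57 and 2.82 CPM and was not called in H1975, with 14.5, 18.8 and 17.8 and 19.6, 22.2 and 19.04 CPM (difference −3.34 ± 0.21, edgeR adjusted p = 1.07e-10). Thrombospondin-1 (THBS1) and tenascin C (TNC) fell in PC9 (log2 changes −1.66 and −1.48) and were not called in H1975 (0.35 and 0.25), with differences of −2.01 and −1.74. The 2 members with a higher response in PC9 were TGFBR1, described below, and SPARC, whose call was lost in 13 of 23 alternatives.

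In all, 16 genes expressed in both lines rose in PC9 and fell in H1975 (0.196%), and 68 fell in PC9 and rose in H1975 (0.834%), each with a called difference. These counts were unstable: without H1975 control 1 they were 1 and 11, and with the 12 libraries alone 114 and 189. ANPEP, a surface aminopeptidase, had 6.12, 4.401 and 4.89 CPM in the PC9 controls and 1.74, 2.11 and 2.28 CPM under the combination, against 32.7, 39.8 and 33.6 and 64.3, 71.04 and 64.02 CPM in H1975. The groups were apart in both lines, in opposite directions (difference −2.25 ± 0.23, edgeR adjusted p = 3.78e-07). The ubiquitin ligase RNF144A (−1.23 in PC9, 0.57 in H1975) and the ligand WNT3 (−1.08 and 0.72) moved in the same sense. For the rise in H1975 the edgeR adjusted p was 0.0444 for RNF144A, 0.0339 for LAMA3 and 0.0161 for WNT3. It was 0.00909 for FN1 and 0.000181 for ANPEP. Whether these single rises hold over the alternatives was not tested. VEGFA, the angiogenic growth factor, also fell in PC9 and rose in H1975, with log2 changes of −0.72 and 0.54 (difference −1.26 ± 0.19, edgeR adjusted p = 6.07e-05).

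The genes that rose in PC9 and fell in H1975 were led by MT1X, ALDOA, VSTM2L, CRACR2B and SYT12. MT1X, a metallothionein with near-identical relatives whose reads may be split between copies, had 7.32, 3.18 and 5.66 CPM in the PC9 controls and 15.3, 12.7 and 15.99 CPM under the combination. In H1975 it had 9.96, 7.11 and 5.91 CPM and then 3.599, 2.77 and 4.001 CPM. No group overlapped with its control, and the difference was 2.57 ± 0.34 (edgeR adjusted p = 1.62e-05). SYT12, a synaptotagmin of the vesicle machinery, went from 64.99, 66.3 and 68.8 to 182, 174 and 164 CPM in PC9 and from 100.1, 87.4 and 68.4 to 54.03, 58.4 and 54.04 CPM in H1975. Its H1975 controls were spread widely but stayed above the combination (difference 2.00 ± 0.20, edgeR adjusted p = 4.63e-07). VSTM2L and CRACR2B, a regulator of calcium entry, differed by 2.21 ± 0.27 and 2.06 ± 0.30. The value of ALDOA (2.22 ± 0.35), a glycolytic aldolase, is uncertain because another annotated gene overlaps it on chromosome 16.

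Among genes called in PC9 and not in H1975, the largest differences in the PC9 direction were those of TGFBR1, IGFBP3, FGD3 and RASL11A. TGFBR1, the type I receptor of TGF-beta, had 8.68, 8.06 and 7.79 CPM in the PC9 controls and 26.5, 30.2 and 22.7 CPM under the combination, and 19.02, 16.8 and 30.9 and 14.3, 13.6 and 14.4 CPM in H1975. It rose in PC9 without overlap. In H1975 every combination library was below every control, but the change of −0.66 was not called (edgeR adjusted p = 0.114), giving a difference of 2.35 ± 0.38 (edgeR adjusted p = 0.000139). FGD3, an activator of the small GTPase CDC42, went from 23.8, 21.5 and 29.5 to 108, 99.2 and 105 CPM in PC9 and from 11.01, 12.2 and 9.495 to 8.92, 9.51 and 10.03 CPM in H1975, where the groups overlapped (difference 2.27 ± 0.25, edgeR adjusted p = 1.16e-06). The small GTPase gene RASL11A rose in PC9 by 2.21 against −0.02 in H1975 (not called), and KTN1, a kinesin-binding membrane protein, by 1.88 against −0.17 (not called). IGFBP3, an IGF carrier, differed by 2.31 ± 0.69 (edgeR adjusted p = 0.0231), but H1975 control 3 had 102 CPM where the other H1975 controls had 24.5 and 19.0, and the call was lost in 5 of 23 alternatives.

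In the other direction the largest difference was that of G0S2, an inhibitor of the lipase that breaks down stored fat. It had 11.1, 14.1 and 15.8 CPM in the PC9 controls and 0.388, 0.321 and 0.446 CPM under the combination, against 99.2, 129.7 and 82.01 and 53.4, 55.4 and 59.4 CPM in H1975. PC9 came close to 0 and H1975 kept more than 50 CPM (difference −4.24 ± 0.53, edgeR adjusted p = 1.16e-06). The semaphorin receptor gene PLXNA4 fell in PC9 (log2 change −3.50) and was not called in H1975 (0.62), for a difference of −4.12 ± 0.42. The membrane ubiquitin ligase MARCHF4 and the vitamin B12 carrier TCN1 fell in both lines and more in PC9, with differences of −3.17 ± 0.31 and −2.75 ± 0.38. The phosphodiesterase gene PDE2A fell in PC9 (log2 change −2.94) and was not called in H1975 (−0.26). The value of EIF3CL (−2.62 ± 0.50) is uncertain, since it shares nearly all of its sequence with EIF3C.

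**Figure D5:**
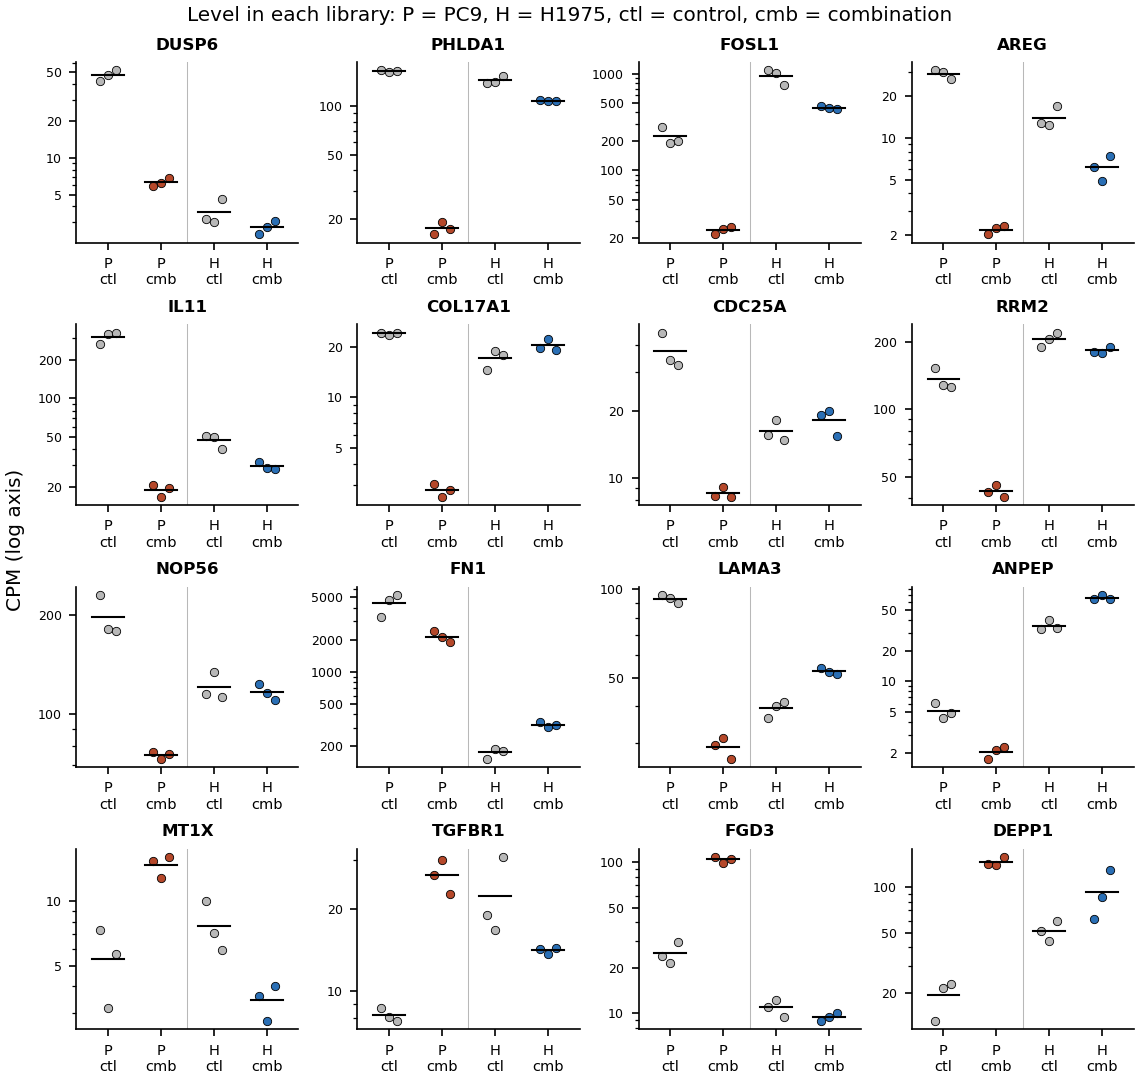
CPM of 16 genes in each of the 12 libraries (log axis). Points are libraries and bars are group means, for control and combination in PC9 and H1975. DUSP6, AREG and IL11 drop in PC9 by far more than in H1975, and FN1, LAMA3 and ANPEP move in opposite directions.

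A like response was found for 95 of the 8157 genes (1.16%): called in both lines, with the 95% interval of the difference within 1.5-fold either way. The strongest were SAMD11, LFNG, DUSP4, DLX3 and CCDC92. SAMD11 went from 12.7, 16.4 and 15.01 to 42.6, 41.3 and 45.99 CPM in PC9 and from 28.3, 25.3 and 24.7 to 69.4, 85.4 and 78.3 CPM in H1975, so that it rose by 1.56 and 1.57 (interval of the difference −0.45 to 0.43). LFNG, a glycosyltransferase that modifies Notch receptors, rose by 1.15 and 1.07 (interval −0.42 to 0.57). The homeobox gene DLX3 rose by 1.05 and 1.02, and CCDC92 by 0.99 and 0.91. DUSP4, an ERK phosphatase like DUSP6, fell from 259, 254 and 262 to 109, 122 and 114 CPM in PC9 and from 57.5, 56.4 and 48.1 to 27.3, 26.1 and 26.8 CPM in H1975 (interval −0.48 to 0.18). It was the strongest like response among the genes that fell, in a family whose member DUSP6 differed. The number of like responses grew to 543 with the 12 libraries alone.

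Stress genes gave mixed counts. Over all genes tested 11.0% were higher in H1975 and 6.99% in PC9. Of 26 genes of the ATF4 and amino acid stress list, 6 were higher in H1975 (4 to 11 over the alternatives) and 3 in PC9. The 3 became 1 without H1975 combination 1 or 2, PC9 combination 2 or PC9 control 3, and 6 with library weights. NUPR1, a stress-induced chromatin protein, rose in both lines, by 2.52 in PC9 and 0.86 in H1975 (difference 1.66 ± 0.31, edgeR adjusted p = 0.000689). DDIT3, the transcription factor CHOP, differed the other way (−1.10 ± 0.25, edgeR adjusted p = 0.0038), and so did the secreted stanniocalcin STC2 (−0.95 ± 0.17). Of 21 endoplasmic reticulum chaperones and unfolded protein response genes, 3 were higher in PC9 (2 to 8 over the alternatives): HSP90B1, HERPUD1 and DNAJC3, which lost its call in 9 of 23 alternatives. HSP90B1, the chaperone GRP94, had 143, 157 and 123 CPM in the PC9 controls and 269.6, 351 and 284 CPM under the combination, and 94.7, 73.98 and 119 and 73.4, 70.2 and 75.8 CPM in H1975. It rose in PC9, and the H1975 change was not called (difference 1.49 ± 0.33, edgeR adjusted p = 0.00288). Of 24 NRF2 targets, 4 were higher in PC9, among them transketolase (TKT), which rose in PC9 from 2222, 2474 and 2736 to 5144, 4842 and 5191 CPM and was not called in H1975 (difference 1.14 ± 0.24, edgeR adjusted p = 0.00213). The 4 became 1 without H1975 combination 1 or PC9 control 3, 2 without H1975 combination 2 or PC9 combination 2 or 3, and up to 11 over the other alternatives.

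Among p53 targets, 4 of 24 were higher in PC9 and 5 in H1975 (6.99% and 11.0% of all genes tested). The antiproliferative gene BTG2 rose in PC9 from 4.71, 5.21 and 6.44 to 19.7, 20.3 and 19.7 CPM, and in H1975 it had 2.55, 3.39 and 1.94 and 3.76, 3.65 and 3.52 CPM (difference 1.39 ± 0.27, edgeR adjusted p = 0.000936). The nuclease AEN fell in both lines, with log2 changes of −2.33 and −0.90 (difference −1.44 ± 0.24, edgeR adjusted p = 0.000171), and the secreted factor GDF15 fell in PC9 (log2 change −1.69) and was not called in H1975 (−0.22).

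The targets of paclitaxel were also followed. Of 15 tubulin genes tested, 10 fell and 2 rose in PC9 and 0 were called in H1975 by edgeR fitted to all 24 libraries (1 fell at an unadjusted p under 0.05, 0 by DESeq2, 9 with library weights, 3 with the 12 libraries alone and 4 with the length and GC offset). The difference was called for 3: TUBA1B in the H1975 direction and TUBB4A and TUBA1A in the PC9 direction. Over all genes tested 18.6% fell and 17.5% rose in PC9, and 11.0% were higher in H1975 and 6.99% in PC9. The 2 in the PC9 direction became 0 without H1975 combination 1 and 1 without H1975 control 1, H1975 control 2, PC9 control 1 or PC9 combination 3. The count in the H1975 direction was 2 without H1975 control 2, 6 with the 12 libraries alone or library weights, and 8 with the length and GC offset. TUBA1B, a main alpha-tubulin gene, had 2474, 2125 and 2232 CPM in the PC9 controls and 1052, 934 and 1052 CPM under the combination, and 5518, 5856 and 4334 and 4590.0, 4504 and 4479 CPM in H1975. The PC9 groups were apart by more than 1000 CPM, and the difference was −0.96 ± 0.25 (edgeR adjusted p = 0.00916). TUBB, the main beta-tubulin gene, fell in PC9 (log2 change −0.56) and was not called in H1975 (−0.30), and the difference was not called (interval −0.79 to 0.27). Tubulin genes are similar in sequence, so reads may be split among them.

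The single-drug changes of a few of these genes, which share the control libraries with the combination, were as follows. FN1 changed by −3.70 under almonertinib, −2.43 under paclitaxel and −1.05 under the combination in PC9, and by 0.06, −0.34 and 0.87 in H1975. LAMA3 changed by −3.52, −1.63 and −1.67 in PC9, and by 0.05, −0.08 and 0.42 in H1975. DUSP6 had −1.54, −0.34 and −2.90 in PC9, where the combination value was the lowest of the 3, and −0.74, −0.29 and −0.40 in H1975. CDC25A changed by −2.13, −0.89 and −2.12 in PC9, and by −0.20, −0.02 and 0.16 in H1975. OAS2 changed by 1.41, 1.59 and 0.67 in PC9, where the combination value was the lowest of the 3, and by 2.88, 2.42 and 2.95 in H1975. For FN1 and LAMA3 the fall in PC9 was larger under almonertinib alone than under the combination. No difference between drugs was tested here.

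A further 5223 tested genes missed 5 CPM in the controls of at least 1 line. There the response was higher in PC9 for 415 (7.95%) and higher in H1975 for 271 (5.19%). IFITM2, an antiviral membrane protein with near-identical relatives, went from 2.46, 4.06 and 6.23 to 29.4, 29.03 and 32.5 CPM in PC9 and from 204, 197 and 137 to 143, 130.2 and 151 CPM in H1975 (difference 3.20 ± 0.31, edgeR adjusted p = 2.2e-07). ESPN, an actin-bundling protein, rose in PC9 from 2.51, 2.64 and 3.68 to 27.4, 24.9 and 26.04 CPM, to above the level of H1975, where it had 19.2, 17.9 and 13.5 and 12.6, 11.8 and 13.6 CPM. SEMA5B, a semaphorin, rested on raw counts of 1, 1 and 2 in the PC9 controls and 100, 67 and 79 under the combination, with 131, 93 and 216 and then 166, 174 and 270 in H1975. ABCA4 had 113, 98 and 91 counts in the PC9 controls and 453, 408 and 497 under the combination, against 4, 6 and 3 and then 0 in all 3 libraries in H1975. The autophagy gene ATG9B had 2, 5 and 0 counts in the PC9 controls and 23, 26 and 30 under the combination.

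In the other direction, SPRR1B, a precursor of the cornified envelope, fell in PC9 from 29.8, 34.2 and 28.9 to 0.581, 0.183 and 0.446 CPM and also fell in H1975, from 1.59, 1.41 and 1.09 to 0.376, 0.567 and 0.434 CPM (difference −4.68 ± 0.51, edgeR adjusted p = 1.67e-06). MAOB, the monoamine oxidase, went from 10.2, 7.45 and 9.13 to 0.339, 0.229 and 0.644 CPM in PC9 and had 0.637, 0.903 and 1.18 and 1.29, 0.756 and 0.723 CPM in H1975. CSF2, the cytokine GM-CSF, had 46, 35 and 27 counts in the PC9 controls and 1, 3 and 0 under the combination, while H1975 kept 370, 369 and 326 and then 297, 281 and 341. SERPINA1 and KCNQ5 had at most 5 counts in any PC9 control or combination library, so that their calls rest on very few PC9 reads.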

How the data were processed

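The authors deposited gene-level read counts as whole numbers, not normalized, in one table of 24 libraries, and the 12 control and combination libraries of PC9 and H1975 are compared here. Per the labels, TRIzol was used for the RNA and a SMART-RNAseq kit for the libraries. The submitters' processing notes name HTSeq, HISAT2 2.2.1 and the build GRCh38. The version of HTSeq, its annotation and the strand counted are not given in the sources used here, so reads of antisense or overlapping genes may be mixed.

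Symbols (19661 of 19702 genes) came from a reference list of gene names, or from RefSeq or GENCODE v29 where that list gave none. Spans and lengths came from GENCODE v29 on GRCh38. All 24 libraries were fitted together in edgeR 4.0.16 (R 4.3.3) after filterByExpr, with TMM factors and a quasi-likelihood model with a term for each of 8 groups. The difference was the contrast of the 2 combination changes, two-sided, with Benjamini-Hochberg adjustment over 13380 genes, called at 0.05. CPM are counts over the library size times its TMM factor, and log2 changes are nearly unshrunk (prior count 0.125). The ± is a standard error. The 12 libraries compared held 15255499 to 24245314 counts each, so counting error is small except at low CPM and where raw counts are printed.

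The members and the 44 gene lists (947 entries, 946 matched) were chosen with earlier results of these data known, and no set test was run. The genes named were chosen by rule: the 10 largest called differences each way among protein-coding genes without overlap of library log-ratios (log2 of CPM + 0.5), the 5 largest opposite changes each way, the 5 strongest like responses, the 5 largest each way among genes low in 1 control, up to 3 called members each way per list, and EGFR, DUSP6, FOSL1, CCND1, MYC and TUBB. Some genes this rule selects are not reported here. Promoter sequences were RefSeq entries on GRCh38.p14, with the first start listed per gene, searched on both strands. Alternatives were RLE and upper quartile factors, no filter, a stricter filter, DESeq2 1.42.0, limma 3.58.1 voom with library weights, the 12 libraries alone, a length and GC offset (spline with 5 degrees of freedom), the repeat number as a block, gates of 1 and 20 CPM, a 2-fold minimum, and leaving out each library. The stricter filter asked for at least 1 CPM in 3 libraries and a mean of at least 5 CPM over the 12 control and combination libraries.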

Additional observations from a re-analysis of the deposited data

Results flagged for a closer look

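The test of the difference between the lines singled out 520 genes with a higher response in PC9 and 1196 with a higher response in H1975. Among them the lines moved in opposite directions for 16 genes that rose in PC9 and fell in H1975 and for 68 that fell in PC9 and rose in H1975. The largest differences of the first kind were those of MT1X (2.57), ALDOA (2.22), VSTM2L (2.21), CRACR2B (2.06) and SYT12 (2.00). Those of the second kind were ANPEP (−2.25), LAMA3 (−2.09), FN1 (−1.92), RNF144A (−1.81) and WNT3 (−1.80). Single libraries were not tested for standing apart within a gene, because each group held 3.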

How the results depend on the processing

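Of 3961 checks of 173 named genes under 23 alternatives, 3605 kept their side of the threshold, 348 lost the call and 8 gained it. A change of sign with a call in either fit was found in 0. Changes of sign without a call were counted as kept, as for CCND1, whose difference ran from −0.15 to 0.27. In all, 126 genes kept their side of the threshold in this sense under every alternative. Counts below are genes expressed in both lines, and where the cause of a shift is not given by the alternative's construction it was not tested. With upper quartile factors 799 genes were higher in PC9, 496 fell in H1975, 36 rose in PC9 and fell in H1975, and 184 responded alike. Opposite changes with a fall in PC9 numbered 43 without a filter, 137 with DESeq2 and 40 with a 2-fold minimum, which left 263 and 327 differences, and those with a rise in PC9 numbered 33 with the stricter filter. With library weights the differences were 1673 and 2268, with 2050 rising and 2996 falling in PC9, 1637 and 2023 in H1975, 253 and 398 opposite changes and 1080 like responses. With the 12 libraries alone they were 1281 and 1816, with 1113 rising and 1277 falling in H1975, 114 and 189 opposite and 543 alike. Leaving H1975 control 3 out of those 12, chosen after the data were seen, gave 1838 and 2232 differences, 2095 and 3072 in PC9, 1555 and 2153 in H1975, 297 and 349 opposite and 1171 alike. The length and GC offset gave 1445 genes higher in PC9, 1942 rising in PC9, 1284 falling in H1975, 137 opposite with a rise in PC9 and 683 alike. A gate of 1 CPM gave 807 higher in PC9 and 1777 rising there. A gate of 20 CPM gave 211 and 771 differences (21.5% in the PC9 direction), 513 rising in PC9, 366 rising in H1975, 9 and 38 opposite and 62 alike.

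Leaving out one library at a time gave 301 to 537 genes higher in PC9 and 794 to 1171 higher in H1975. It gave 865 to 1225 rising and 1308 to 2027 falling in PC9, 198 to 698 rising and 64 to 664 falling in H1975, 1 to 36 and 11 to 88 opposite changes, and 35 to 116 like responses. The lowest H1975 counts were those without H1975 control 1 (198 and 64), and without H1975 control 2, combination 1, 2 or 3 the falls were 136, 121, 93 and 93, against 664 without H1975 control 3. Genes higher in PC9 numbered 331 without H1975 control 1, 301 without H1975 combination 1, 346 without H1975 combination 2 and 336 without PC9 combination 2. A lone pair is assumed to vary like the other groups.

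With the repeat number as a replicate block the differences were 593 and 1200. The pairing is not given by the labels, and control and combination libraries that share a number had deviations correlated by −0.108, 0.211 and 0.244 in PC9 and 0.127, 0.182 and 0.384 in H1975, while not every library correlated best with its own number. The block with the length and GC offset gave 1483 genes higher in PC9 (47.0% of its calls), 1973 rising in PC9, 1305 falling in H1975, 143 and 112 opposite changes and 694 like responses.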

Other observations

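Some lists were called about as often in either line or differed in few members. Of 14 airway secretory, mucin and acute phase genes, 10 rose in PC9 and 6 in H1975 (17.5% and 6.41% of all genes tested). The difference was called for 2 of the 14. SAA1, the acute phase protein serum amyloid A, rose in PC9 from 2.93, 2.84 and 3.399 to 37.4, 33.9 and 35.6 CPM and had 2.002, 1.47 and 1.84 and 1.67, 2.14 and 2.603 CPM in H1975 (difference 3.28 ± 0.31, edgeR adjusted p = 2.14e-07). Serum amyloid genes have close relatives, so its reads may be shared. NAPSA, the lung protease napsin A, rose in H1975 from 0.637, 0.508 and 0.378 to 2.85, 3.27 and 2.75 CPM and had 0.6797, 1.22 and 1.27 and 0.678, 1.101 and 1.29 CPM in PC9 (difference −2.54 ± 0.52, edgeR adjusted p = 0.00124). Both genes were at low levels in the controls.

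Among 13 lung lineage factors, 5 had a higher response in H1975 and 1 in PC9 (11.0% and 6.99% of all genes tested). Only 6 of the 13 were expressed in both lines, and among those 2 were higher in H1975 and 1 in PC9. ELF3, an epithelial ETS factor, rose in PC9 from 101, 121 and 127 to 330.2, 288 and 314 CPM and was not called in H1975, with 106, 105 and 92.5 and 115, 123 and 113 CPM (difference 1.202 ± 0.24, edgeR adjusted p = 0.00109). SOX9, a progenitor factor of the lung, fell in PC9 from 98.3, 88.6 and 100.2 to 49.02, 49.99 and 49.8 CPM and was not called in H1975, with 44.5, 54.2 and 52.2 and 59.5, 56.9 and 55.5 CPM (difference −1.14 ± 0.20, edgeR adjusted p = 0.000301). Of 22 keratin and cornified envelope genes, 11 fell in PC9 and 4 in H1975 (18.6% and 2.99% of all genes tested). The 4 became 1 without H1975 control 1, and 2 without H1975 control 2 or any H1975 combination library. KRT15, a basal keratin, rose in PC9 and fell in H1975, with log2 changes of 0.80 and −0.66 (difference 1.46 ± 0.25, edgeR adjusted p = 0.000271). Of 26 lysosome and autophagy genes, 4 had a higher response in H1975 (15.4%, against 11.0% of all genes tested, a share near the background). The protease gene CTSL (cathepsin L) fell in PC9 (log2 change −1.04) and was not called in H1975 (0.22).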
